A study of Mus musculus with 68 samples.

Results

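The comparison set apical progenitors (APs) that carried an activated Notch1 and a cell-cycle inhibitor against the early APs of the developing mouse cortex. The NICD/p18 APs were 4 single cells, M5A, M5K, M6C and M6H, taken at embryonic day 14 (E14) from small fragments of ventricular and subventricular zone of the dorso-lateral cerebral wall of CD1 mice, 3 days after electroporation of that wall at E11 with pCAG-NICD and pEF-p18. NICD is the intracellular domain of Notch1, p18 is the Cdk inhibitor encoded by Cdkn2c, and the plasmid names give a CAG and an EF promoter, neither of which is particular to one cell type. The E11 APs were 23 single cells of unelectroporated dorso-lateral wall of CD1 embryos at E11, chosen by the cells' names as the E11 cells that the study did not class as neurons, as intermediate progenitors (IPs) or as of low quality. These 27 arrays were selected from 68, and no measured value entered the choice made here. The study had itself picked the NICD/p18 APs as EGFP-positive cells with Ttyh1 and without Tbr2 (Eomes) by qPCR, and had checked that Ki67 was absent from them. It had selected E11 cells for the arrays as progenitors by qPCR of marker genes, and had typed them from these same arrays. For these genes, and for genes that go with them, the values below are a description. The remaining arrays hold 3 APs of E12, 3 APs of neurospheres grown for 3 days from E11 cells, 28 cells of E16 whose types the labels do not give, and 7 other E11 cells.

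Every array holds the cDNA of 1 cell, and nothing in the labels ties cells to embryos or litters. Each group therefore counted as 1 sample, no test was made, and SDs describe the spread between cells. NICD, p18, EGFP, the electroporation and the 3 days between E11 and E14 came together in the same 4 cells and cannot be told apart; E14 cells without NICD and p18 were not analysed here.

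Notch receptors are cut after they bind a ligand on a neighbouring cell, and the released intracellular domain joins the DNA-binding protein Rbpj to switch on targets such as the Hes and Hey repressors and the feedback inhibitor Nrarp. In the cortex this keeps APs, the radial glia that line the ventricle, from turning into IPs and neurons. p18 binds Cdk4 and Cdk6, keeps them from phosphorylating Rb and so holds cells in G1. APs also change with age: early genes give way to late ones, and the cells later turn from making neurons to making glia.

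Signals are given as log2 of quantile-normalized intensity. A gene is called over the 20-copy level where its signal passed 9.72 on this log2 scale, the median over all arrays of the phe spike RNA, which was added at 20 copies per cell. A difference is the mean of the NICD/p18 APs minus the mean of the E11 APs, in log2 units, with signals under that level set to it. A share of 4 of 4 cells has an exact 95% binomial interval of 39.8% to 100% and a share of 0 of 4 cells one of 0% to 60.2%, and 0 of 23 cells has one of 0% to 14.8%, for counting error only. The NICD/p18 APs had 2656 to 2792 genes over the level and the E11 APs 2710 to 2856. The spikes stood higher in the NICD/p18 APs: the lys spike, added at 1000 copies, lay between 13.34 and 13.90 against 11.31 to 13.43 in E11 APs, and the phe spike between 10.20 and 12.19 against 7.41 to 11.93. The level of 9.72 thus lay under the phe signal of every NICD/p18 AP, whereas the median phe signal of E11 APs was 9.45. A gene over the level therefore need not stand for the same copy number in the 2 groups. Counts of genes over the level per cell were not redone with spike scaling. The deposited intensities of the NICD/p18, E12 and neurosphere arrays had been scaled alike and those of the E11 and E16 arrays had not, so this step and the group cannot be told apart in the comparison, and values of the E12 and neurosphere APs are given beside it. Of the E11 APs, 1 cell held 5 of 5 red-cell genes over the level, and no NICD/p18 AP held any.

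Of 10789 genes, 322 (2.98%) were higher in NICD/p18 APs by at least 1 log2 unit and 318 (2.95%) were lower by as much, and the median difference over all genes was 0. With arrays scaled to the lys spike these counts were 149 and 551, and the median difference over all genes, taken with no floor on low signals, moved from -0.13 to -0.39. In 67 genes (0.621%) a difference of that size went with all 4 NICD/p18 APs above every E11 AP, and in 39 genes (0.361%) with all 4 below. The higher genes were led by genes of radial glia and astrocytes and the lower genes by genes of DNA replication and mitosis.

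**Figure D1:**
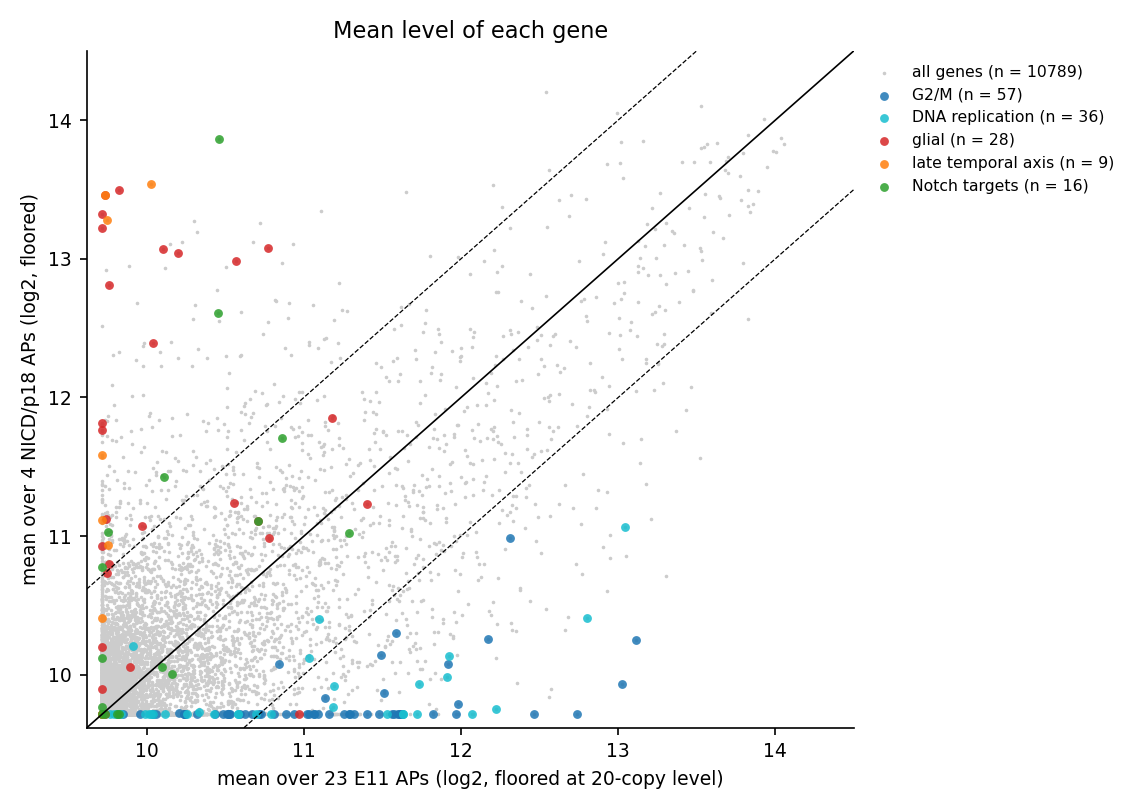
Mean log2 signal of each gene over the 4 NICD/p18 APs (vertical axis) against the mean over the 23 E11 APs (horizontal axis), each signal floored at the 20-copy level; the solid line marks equality and the dashed lines a difference of 1, and colours mark gene lists. G2/M and DNA replication genes lie along and below the lower dashed line, many of them at the floor in NICD/p18 APs, while several glial and late temporal-axis genes lie at the floor in E11 APs.

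The electroporated genes came first. Notch1 had 2 probe sets, and they differed. On 1418633_at the NICD/p18 APs measured 13.70 in M5A, 12.75 in M5K, 13.70 in M6C and 13.60 in M6H, with a mean of 13.44 ± 0.46 (SD, n = 4). The E11 APs ran from 0.95 to 10.58 with a median of 4.46, and 3 of 23 passed the level. All 4 NICD/p18 APs thus lay above every E11 AP, by a difference of 3.66, and above the E12 APs (4.43 to 7.92), the neurosphere APs (5.59 to 7.43) and the E16 cells (at most 10.58). On 1418634_at, the probe set with the higher mean over all arrays, the same cells measured 9.20, 9.30, 10.30 and 10.64, inside the E11 range of 3.38 to 12.33, and the difference was -0.27. The files give no probe positions, so which Notch1 transcripts each probe set reads was not tested. Cdkn2c had 1 probe set, on which M5A measured 8.87, M5K 6.29, M6C 5.84 and M6H 8.69. None of the 4 cells passed the level, against 5 of 23 E11 APs, whose range was 4.76 to 10.78. No high Cdkn2c signal was thus seen in these cells. The study's methods describe the p18 insert as a stretch of cDNA in a vector, and whether this probe set lies within that stretch was not tested.

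AP markers were mostly over the level, with an exception in M5K. Vim, a filament protein of radial glia, measured 14.04, 13.45, 14.09 and 13.83 in M5A, M5K, M6C and M6H, all but M5K above the E11 maximum of 13.68. Pax6, a transcription factor of cortical APs, was over the level in 4 of 4 cells (10.63 to 12.71) and in 17 of 23 E11 APs (8.14 to 12.93). Sox2, which maintains neural progenitors, measured 13.81 in M5A, 13.18 in M6C and 11.98 in M6H but 8.90 in M5K, under the lowest E11 AP at 10.52. Ttyh1, by which the cells were picked, lay between 11.79 and 13.20. Of 22 listed AP genes 12 to 16 were over the level per NICD/p18 AP, against 9 to 17 per E11 AP. Of the 22, 6 were higher by at least 1 (27.3% against 2.98% of all genes), and Emx2 and Ybx3 were lower (9.09% against 2.95%). M5K and M6C also had more neuronal genes over the level than any E11 AP, as given with the neuronal list. The name AP follows the study's qPCR choice. In the study's own principal component analysis some of the 4 cells lay among E14 APs and the others near E14 IPs. Eomes, the IP gene by whose absence the cells were picked, was over the level in none of the 4 cells and measured at most 4.72.

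Notch targets were in part high. Of 17 listed targets 16 passed the filter on low signals, 5 were higher by at least 1 (31.2% against 2.98% of all genes) and none was lower. The count was 3 without M5K, without M6H and with arrays scaled to the lys spike. Nrarp and Pdgfrb, both among the 5, had been given beforehand, with Notch1, as markers of this comparison. The list itself was chosen with earlier results of these data known. Its share of higher genes is thus a description and not independent evidence. The median difference over the 16 was 0.23. NICD/p18 APs had 7, 8, 9 and 8 of the 16 over the level in M5A, M5K, M6C and M6H, E11 APs 1 to 9 with a median of 4, E12 APs 5 to 8 and neurosphere APs 5 to 7. The E16 cells had 1 to 9 with a median of 5.5, which overlaps the NICD/p18 range.

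Nrarp, the feedback inhibitor that Notch itself induces, measured 12.64 in M5A, 12.25 in M5K, 12.53 in M6C and 13.01 in M6H, a mean of 12.61 ± 0.32 (SD, n = 4). The E11 APs ranged from 4.55 to 12.04 with a median of 9.49, and 10 of 23 passed the level. Every NICD/p18 AP lay above every E11 AP, the difference was 2.15, and the cells were at least 4.45-fold higher. Among arrays scaled in the same way, Nrarp reached 10.78 to 12.30 in E12 APs and 9.80 to 12.52 in neurosphere APs, so that M5K lay inside both ranges. Nrarp was also over the level in 16 of 28 E16 cells, up to 12.34. Its second probe set was over the level in M5K and M6H and in 2 E11 APs.

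Hes5, a repressor of proneural genes, was unequal among the 4 cells. It measured 12.63 in M5K and 12.56 in M6H, 10.81 in M5A and 8.07 in M6C, against an E11 range of 1.56 to 12.14 with 7 of 23 cells over the level. M5K and M6H stood above every E11 AP and M6C lay near the E11 median of 7.68. The difference of 1.32 dropped to 0.92 without M5K and 0.94 without M6H. Hes1, the second main Hes repressor of cortical APs, was low in every cell, at 2.62, 3.18, 1.57 and 2.18. In E11 APs it ran up to 10.77 with a median of 7.79, but only 4 of 23 cells were over the level, so the difference on the floored scale was -0.09. In all 4 cells Hes5 thus lay above its E11 median and Hes1 below its own.

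Hey1 was over the level in 4 of 4 cells (11.32, 12.16, 10.65 and 9.97) and in 20 of 23 E11 APs, with a difference of -0.26. Hey2 was over the level in M6H alone (11.33), and Heyl in M6C alone (9.92); no E11 AP passed the level for either. Dtx1, an E3 ligase of the Notch pathway, measured 12.02 in M5K, 12.15 in M6H, 10.23 in M6C and 9.52 in M5A, where 2 of 23 E11 APs passed the level, and the difference of 1.28 dropped to 0.95 without M5K and 0.91 without M6H. M5K and M6H were thus the 2 cells with the highest Hes5 and the highest Dtx1. Fabp7, a fatty-acid-binding protein of radial glia that Notch induces, was close to uniform at 13.98, 13.78, 13.95 and 13.76, at least 10.6-fold above the E11 APs, which reached 12.83 with a median of 9.56. Neurosphere APs measured 13.75 to 13.79 and E12 APs 11.02 to 11.25. Fabp7 was over the level in 27 of 28 E16 cells, up to 14.11.

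Pdgfrb, the PDGF receptor beta and a Notch target in vascular smooth muscle cells, was read by 2 probe sets. On 1436970_a_at it measured 12.57, 12.05, 12.75 and 12.48 in M5A, M5K, M6C and M6H, with a mean of 12.46 ± 0.30 (SD, n = 4), and only 1 of 23 E11 APs passed the level, at 11.30. The E11 median was 0.12, E12 APs reached at most 2.32 and neurosphere APs at most 3.95, and 3 of 28 E16 cells passed the level. On 1417148_at it measured 10.51, 5.92, 11.65 and 11.22, over the level in every cell but M5K, and no E11 AP passed. The differences were 2.68 and 1.06, and the second dropped to 0.77 without M6C and 0.91 without M6H. Pdgfrb also marks pericytes. Of 20 listed mural and mesenchymal genes 6 passed the filter, and 1 or 2 of these were over the level per NICD/p18 AP, against 0 or 1 per E11 AP. Those genes were Notch3, which is also a Notch pathway member, in 4 of 4 cells, and Mcam in M5A; Acta2 and Col1a2, a muscle actin and a collagen, and Cspg4 were over the level in none.

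**Figure D2:**
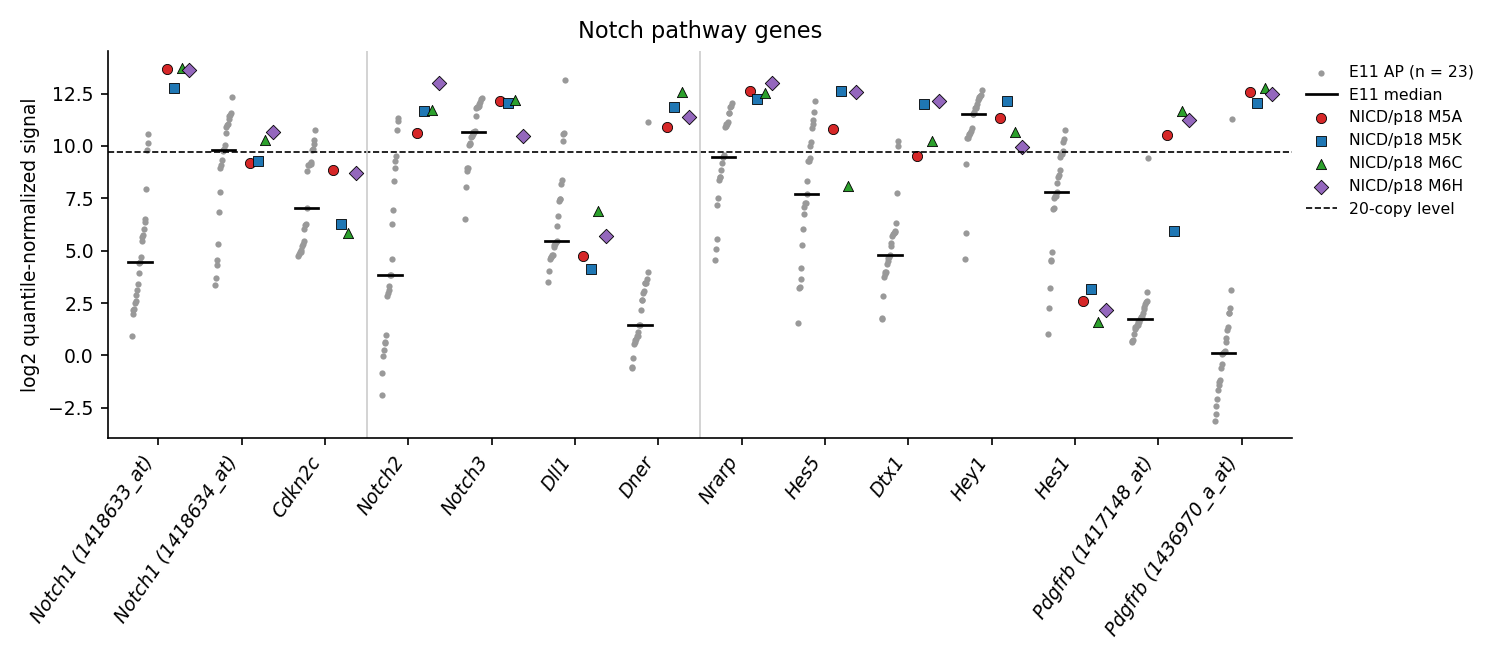
Log2 quantile-normalized signal of Notch pathway genes in single cells: grey points are the 23 E11 APs with their median as a bar, coloured symbols the 4 NICD/p18 APs, and the dashed line the 20-copy level; Notch1 and Pdgfrb are shown on both of their probe sets. On Notch1 1418633_at, Nrarp and Pdgfrb 1436970_a_at all 4 NICD/p18 APs lie above every E11 AP, while on Hes1 all 4 lie far under the level.

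Hes5 is printed because it holds the binding letters of Rbpj. In the RefSeq promoter table for GRCm38.p6 its window, chr4:154960673-154960972 on the plus strand, runs from 250 bases before to 50 bases after the gene start, 5′ to 3′ along the gene, and capitals mark GTGGGAA or its reverse complement.
Hes5: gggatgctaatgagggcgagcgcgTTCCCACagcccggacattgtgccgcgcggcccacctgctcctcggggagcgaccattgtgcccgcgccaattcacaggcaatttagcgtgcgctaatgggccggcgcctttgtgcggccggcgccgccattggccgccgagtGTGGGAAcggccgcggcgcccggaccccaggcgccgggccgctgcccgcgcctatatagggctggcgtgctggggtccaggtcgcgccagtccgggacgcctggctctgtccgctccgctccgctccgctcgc
The window held 2 matches, whose first bases lay at -226 and -83 from the start. The window of Nrarp held none. Of 9 Notch targets with a window 2 held the motif, against 6.03% of the 8822 compared genes with a window and 6.39% of all genes. Of the genes higher by at least 1, 10.2% of 265 windows held it, and of the genes lower by at least 1, 3.96% of 278. The share of Notch targets counts listed genes whatever their difference, so it describes the list and not these cells. A match is a run of letters and not a measured site.

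Receptors, ligands and cofactors of the pathway were next, with Notch1 counted on 1418634_at. Of 28 listed genes 23 passed the filter, 2 were higher by at least 1 (8.70% against 2.98% of all genes), none was lower, and the median difference was -0.0050. Notch2, a receptor related to Notch1, was one of the higher genes, at 10.64, 11.68, 11.71 and 13.02, with 3 of 23 E11 APs over the level and a median of 3.85; the difference was 1.86. Its second probe set gave a difference of 0. Dner, an atypical Notch ligand, measured 10.90, 11.88, 12.59 and 11.39, against 1 E11 AP over the level at 11.12, a difference of 1.91. Neurosphere APs also had Dner over the level in 3 of 3 cells (11.32 to 11.97), and E12 APs in 0 of 3. Notch3 lay at 12.16, 12.04, 12.17 and 10.48 within the E11 range of 6.53 to 12.28. The canonical ligand Dll1 was over the level in 0 of 4 cells (4.11 to 6.87) and in 4 of 23 E11 APs, and Jag1 in M6C alone (10.22). Rbpj, on the probe set used, was over the level in 0 of 4 cells and 9 of 23 E11 APs, and on a second probe set in M5K alone (9.91) and 12 of 23.

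Cell-cycle genes separated the NICD/p18 APs from the E11 APs cell by cell. Of 59 listed G2/M genes 57 passed the filter, 36 were lower by at least 1 (63.2% against 2.95% of all genes) and none was higher; the median difference was -1.31. Of the 57, only 7, 5, 1 and 2 were over the level in M5A, M5K, M6C and M6H. E11 APs had 14 to 53 with a median of 46, E12 APs 34 to 53 and neurosphere APs 36 to 51. No E11, E12 or neurosphere AP had as few as any NICD/p18 AP, but the E16 cells ran from 2 to 54 and the 7 other E11 cells from 1 to 57, which overlaps the NICD/p18 range. In all, 45 of the 57 were over the level in none of the 4 cells. The study had checked these cells for the absence of Ki67, and on the arrays Mki67 measured -0.09 to 4.23 against 8.73 to 13.01 in E11 APs. The separation on G2/M genes is thus not independent of how the cells were chosen.

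Top2a, the topoisomerase that untangles chromosomes before mitosis, measured 4.74, 2.02, 3.48 and 4.01, against 22 of 23 E11 APs over the level with a median of 12.88, and the difference was -2.74. Cenpa, the histone H3 variant of centromeres, was at 5.28, 0.50, 2.29 and 3.36, with all 23 E11 APs over the level (9.80 to 13.25). The groups did not overlap for either gene. Ube2c, the ubiquitin-conjugating enzyme of the anaphase-promoting complex, had the largest difference of the list, -3.09, although M5A was over the level at 10.57. Cks2, a Cdk-binding subunit, was likewise over the level in M5A alone (11.86; difference -2.86), and Cdc20, the activator of that complex, in none of the 4 cells (difference -3.02).

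DNA replication genes were lower in part. Of 37 listed genes 36 passed the filter, 14 were lower by at least 1 (38.9% against 2.95% of all genes), none was higher, and the median difference was -0.78. M5A had 4 of 36 over the level, M5K 4, M6C 6 and M6H 1, whereas E11 APs had 13 to 29, E12 APs 21 to 26, neurosphere APs 13 to 28, E16 cells 3 to 28 and the 7 other E11 cells 4 to 29. Rrm2, the regulated subunit of ribonucleotide reductase, measured 0.02, -1.04, -0.52 and 2.45 against 10.06 to 13.18 in E11 APs, at least 5.09-fold lower. Pcna, the sliding clamp of DNA polymerases, kept more signal, at 11.12, 11.49, 11.93 and 9.42, and yet every value lay under the lowest E11 AP at 12.11; the difference was -1.98. Mcm7, a subunit of the replicative helicase, measured 2.48, 2.47 and 2.41 in M5K, M6C and M6H but 12.49 in M5A, inside the E11 range of 12.01 to 13.24. Dut and Gmnn, a nucleotide hydrolase and the inhibitor of replication licensing, lay below every E11 AP in all 4 cells, although the second probe set of Dut gave -0.06 against -2.47 on the one used.

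**Figure D3:**
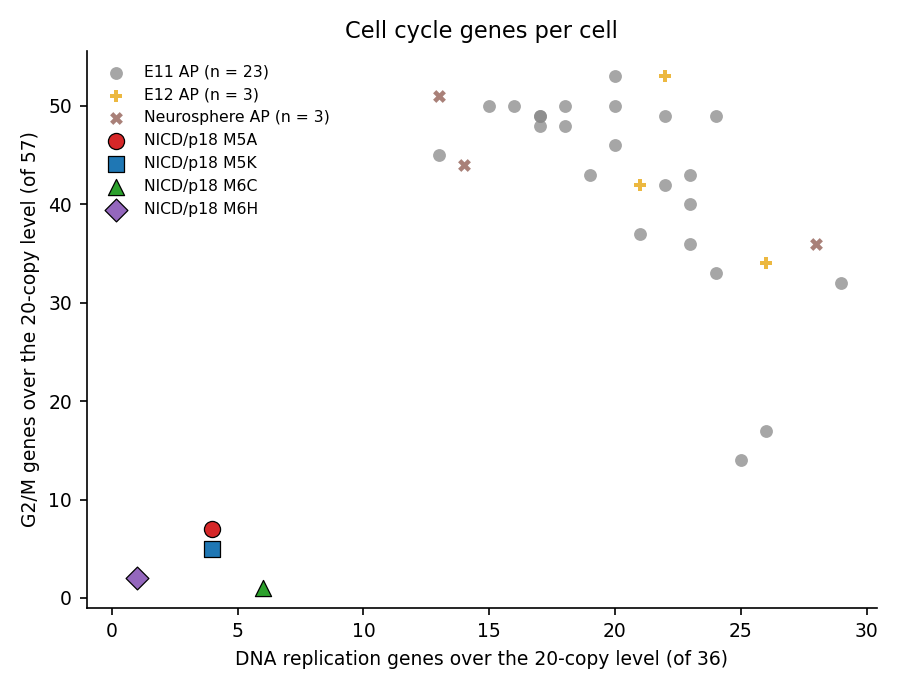
Number of G2/M genes (of 57, vertical axis) and of DNA replication genes (of 36, horizontal axis) over the 20-copy level in each cell; symbols mark the 4 NICD/p18 APs, the 23 E11 APs, the 3 E12 APs and the 3 neurosphere APs. The NICD/p18 APs lie at 1 to 7 G2/M genes and 1 to 6 replication genes, apart from the 3 other groups plotted; E16 cells and the 7 other E11 cells, not plotted, overlap these ranges.

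Promoter letters, which the comparison did not use, were counted next. The sequence TTTGAA, the cell-cycle homology region bound by the DREAM and MuvB complexes, was found on either strand in the windows of 36 of 48 G2/M genes with a window (75%), against 11.2% of the compared genes and 18.1% of all genes. It was in 22.3% of the 278 windows of genes lower by at least 1 and in 7.92% of the 265 windows of higher genes. The lower genes, here and for the words below, include members of the G2/M and replication lists. Shares without those members were not taken, so the shares of lower genes are not separate from those of the lists. The G2/M and replication shares count every compared member with a window, whatever its difference. They describe the lists and not these cells. CCAAT was in 77.1% of the G2/M windows and 39% of those of the compared genes. The 3 E2F-like words TTTCCCGC, TTTGGCGC and TTTCGCGC, searched together on both strands, were in 8 of 30 replication windows (26.7%), against 3.85% of compared genes, 1.91% of all genes, 9.35% of lower and 1.89% of higher genes. The windows of 3 G2/M genes and 1 replication gene named above are shown as examples, in the same table and layout; capitals mark TTTGAA and CCAAT in Top2a (chr11:99024140-99024439, minus strand), Ube2c (chr2:164769679-164769978, plus strand) and Cdc20 (chr4:118437294-118437593, minus strand), and the E2F-like words in Mcm7 (chr5:138171834-138172133, minus strand), on either strand, with overlapping matches run together.
Top2a: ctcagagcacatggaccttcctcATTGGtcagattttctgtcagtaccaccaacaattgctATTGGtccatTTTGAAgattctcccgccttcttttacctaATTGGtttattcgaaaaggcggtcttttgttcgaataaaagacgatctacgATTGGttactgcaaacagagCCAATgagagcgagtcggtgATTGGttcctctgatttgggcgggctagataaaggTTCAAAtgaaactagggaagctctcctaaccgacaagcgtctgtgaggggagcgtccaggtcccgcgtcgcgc
Ube2c: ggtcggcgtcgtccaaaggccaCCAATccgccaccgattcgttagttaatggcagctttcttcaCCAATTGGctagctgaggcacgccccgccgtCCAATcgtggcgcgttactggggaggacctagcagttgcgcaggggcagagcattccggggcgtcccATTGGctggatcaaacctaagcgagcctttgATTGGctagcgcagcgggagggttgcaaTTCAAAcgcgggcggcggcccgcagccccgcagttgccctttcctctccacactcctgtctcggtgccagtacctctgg
Cdc20: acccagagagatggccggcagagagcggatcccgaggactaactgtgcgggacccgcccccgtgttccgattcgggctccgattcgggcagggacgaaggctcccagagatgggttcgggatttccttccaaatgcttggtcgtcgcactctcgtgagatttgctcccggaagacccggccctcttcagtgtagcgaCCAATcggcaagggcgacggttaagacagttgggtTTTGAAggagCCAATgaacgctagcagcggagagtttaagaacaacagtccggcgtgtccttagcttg
Mcm7: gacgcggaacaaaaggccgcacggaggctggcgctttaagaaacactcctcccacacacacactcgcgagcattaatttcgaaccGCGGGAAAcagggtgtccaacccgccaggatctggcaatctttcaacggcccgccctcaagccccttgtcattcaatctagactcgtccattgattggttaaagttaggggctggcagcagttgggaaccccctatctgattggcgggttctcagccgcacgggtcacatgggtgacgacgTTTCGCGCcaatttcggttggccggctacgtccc
The first base of TTTGAA lay at -29 from the start in Ube2c, at -18 in Cdc20 and at -179 and -23 in Top2a. The windows of Rrm2 and Pcna held none of the E2F-like words.

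The regulators around p18 itself gave a mixed picture. Of 22 listed cyclins, kinases, inhibitors and Rb-pathway genes 20 passed the filter. Of these, 4 were lower by at least 1 (20% against 2.95% of all genes) and none was higher. Cdk4, a kinase that p18 binds, stayed over the level in every cell at 11.57, 11.67, 11.12 and 10.44, but below every E11 AP (12.54 to 13.10), 3.16-fold lower on means of 11.20 ± 0.56 (SD, n = 4) and 12.86 ± 0.18 (SD, n = 23). Its remaining probe sets gave -1.87 and -2.06. Cdk6, the other kinase that p18 binds, was over the level in 4 of 4 NICD/p18 APs (11.09, 11.37, 10.86 and 10.16), 4 of 23 E11 APs, 1 of 3 E12 APs and 26 of 28 E16 cells. Ccnd1, the cyclin partner of these kinases, was over the level in M5K alone (12.09; 5.30 to 7.85 in the others), against 22 of 23 E11 APs, a difference of -1.54. Ccnd2 and Ccnd3 were over the level in all 4 cells with differences of -0.10 and 0.76. Mycn, a driver of progenitor growth, measured 2.44, 1.98, 9.07 and 2.46 against 22 of 23 E11 APs over the level (difference -2.13), and it was under the level in all 3 neurosphere APs as well. Skp2, which marks Cdk inhibitors for breakdown, was over the level in M5K and M6H (difference -1.68). Cdkn1b, the inhibitor p27, was over the level in 3 of 4 cells (8.55 to 11.29) and 2 of 23 E11 APs, with a difference of 0.60, and Cdkn1a, the inhibitor p21, in none of either.

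Ribosome assembly genes were lower in part. Of 25 listed genes 23 passed the filter, 6 were lower by at least 1 (26.1% against 2.95% of all genes), none was higher and the median difference was -0.34. The nucleolar chaperone Npm1 measured 11.60 to 12.38, under every E11 AP (12.75 to 13.88), and the RNA methyltransferase Fbl was over the level in M5K alone (difference -1.61). Among 10 genes often used as references, 7 differences were below 0, 1 gene was lower by at least 1 (10%) and none was higher. Their median difference, -0.34, was as low as that of the ribosome assembly genes. Whether the 2 lists share 1 shift was not tested. The difference was -0.54 for Gapdh, a glycolytic enzyme, 0.36 for Actb, cytoskeletal actin, 0.07 for Eef1a1, a translation elongation factor, and -1.61 for Pgk1, a second glycolytic enzyme.

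The study's temporal-axis genes are those whose level separates APs of E11 from later APs. They were chosen with these E11 arrays among others, so their direction here is not independent evidence. Of 9 late genes 6 were higher by at least 1 (66.7% against 2.98% of all genes) and none was lower, with a median difference of 1.40. NICD/p18 APs had 6, 5, 6 and 6 of the 9 over the level, E11 APs 0 or 1, E12 APs 2 to 5, neurosphere APs 4 or 5 and E16 cells 3 to 8. Rlbp1, a retinoid-binding protein of glia, measured 13.46, 13.26, 12.91 and 13.48, with 1 of 23 E11 APs over the level, and was at least 11.5-fold higher. Ptn, the secreted growth factor pleiotrophin, measured 13.28, 13.22, 13.70 and 13.96 against an E11 median of 2.58 and maximum of 11.96. Aldoc, the brain aldolase, measured 13.36, 13.36, 13.68 and 13.42, the largest difference of any gene that kept the groups apart, 3.72; E12 APs already had it at 11.72 to 12.93. Pag1, a membrane adaptor in the control of Src-family kinases, was over the level in 4 of 4 cells (12.72, 10.14, 10.94 and 12.55) and in 0 of 23 E11 APs.

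Zbtb20, Epha5 and Ednrb split the 4 cells on the probe sets used. For Zbtb20 and Epha5 other probe sets split them differently. Zbtb20, a transcription factor of late progenitors and glia, was 9.89 in M5A and 12.31 in M6H but 6.87 in M5K and 8.18 in M6C, under the level though above every E11 AP (at most 6.07). Epha5, an ephrin receptor, was 12.34 in M5A and 12.69 in M6C, 9.05 in M5K and 3.31 in M6H, and its difference of 1.40 dropped to 0.99 without M5A and 0.87 without M6C. Ednrb, an endothelin receptor, was over the level in M5K, M6C and M6H (11.79, 11.85 and 10.40) and not in M5A (8.15), and its difference of 1.19 dropped to 0.90 without M5K and 0.88 without M6C. The adhesion receptor Adgrb3 and the guidance molecule Sema5a were over the level in none of the 4 cells; Adgrb3 was over it in 13 of 28 E16 cells and Sema5a in 1.

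Early genes were mostly low. Of 9, 2 were lower by at least 1 (22.2% against 2.95% of all genes), none was higher and the median was -0.52. In all, 7 of the 9 differences were below 0. The number over the level was 0, 3, 1 and 1 in M5A, M5K, M6C and M6H, against 1 to 8 in E11 APs, 1 to 4 in E12 APs and 0 to 2 in E16 cells. Crabp2, a retinoic-acid-binding protein, measured 0.82, 8.39, 1.46 and 1.92 against 22 of 23 E11 APs over the level and a median of 12.34 (difference -2.36). Fndc3c1 was at 2.34 to 3.81 with 15 of 23 E11 APs over the level (difference -1.08), and the transcription factors Dmrt3 and Dmrta1 were over the level in none of the 4 cells against 12 and 7 of 23. Sulf2, a sulfatase of heparan sulfate, was over the level in M5K (10.70) and M6H (11.19) and in 11 of 23 E11 APs, and Tubb3, a neuronal tubulin, in M5K (11.76) and M6C (11.43) and in 12 of 23. Their differences were 0.11 and 0.08. Hmga2, a chromatin protein that declines as neural progenitors age, measured 3.37, 3.67 and 4.10 in M5A, M5K and M6H and 10.45 in M6C, against 22 of 23 E11 APs over the level, and the difference was -2.67. E16 cells had Hmga2 over the level in 0 of 28.

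**Figure D4:**
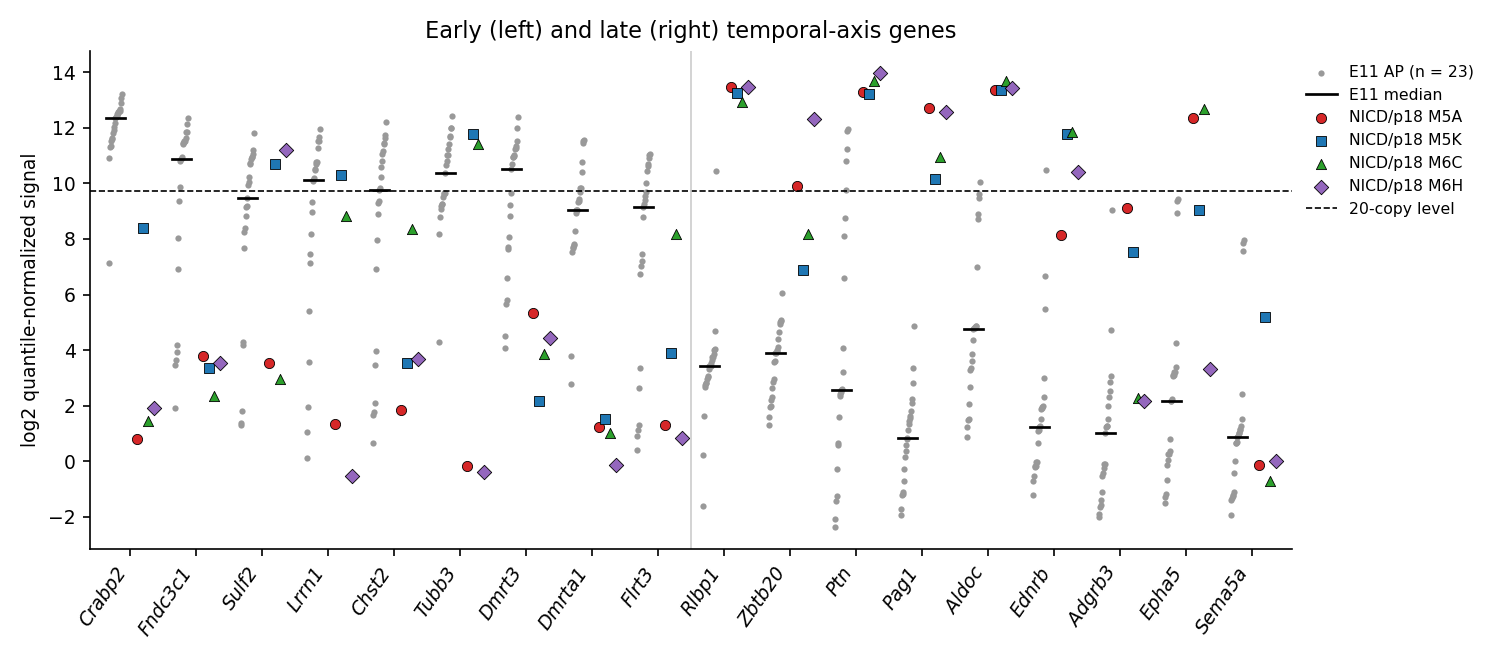
Log2 quantile-normalized signal of the 9 early (left) and 9 late (right) temporal-axis genes: grey points are the 23 E11 APs with their median as a bar, coloured symbols the 4 NICD/p18 APs, and the dashed line the 20-copy level. Rlbp1, Ptn, Pag1 and Aldoc are over the level in all 4 NICD/p18 APs, Sema5a and Adgrb3 in none, and Sulf2 and Tubb3 in 2 each.

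Glial genes gave more higher genes than any other list. Of 31 listed genes 28 passed the filter. Of these, 16 were higher by at least 1 (57.1% against 2.98% of all genes), 1 was lower (3.57% against 2.95%) and the median difference was 1.15. Aldoc, named above, is on this list too. Of the 28, 19, 22, 19 and 24 were over the level in M5A, M5K, M6C and M6H, against 3 to 11 in E11 APs, 10 to 13 in E12 APs, 13 to 18 in neurosphere APs and 4 to 22 in E16 cells. No E11, E12 or neurosphere AP reached the lowest NICD/p18 AP.

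Tnc, the matrix protein tenascin-C, measured 13.71, 13.13, 12.95 and 13.51, and no E11 AP passed the level (at most 4.39), so that the NICD/p18 APs were at least 12.2-fold higher. Bcan, the proteoglycan brevican, measured 12.87, 13.27, 12.97 and 13.77 and was likewise over the level in 0 of 23 E11 APs, at least 11.3-fold higher. Both were over the level in 3 of 3 neurosphere APs and 0 of 3 E12 APs. Bcan was also over the level in 10 of 28 E16 cells, up to 13.29. Mt3, a metallothionein of astrocytes, measured 13.39 in M5A, 13.65 in M5K and 13.93 in M6H, the mean over all 4 cells was 13.49 ± 0.40 (SD, n = 4), with 2 of 23 E11 APs over the level. Among genes with no overlap between the groups, differences of 3.05 to 3.18 were found for Mfge8, a milk-fat-globule protein that bridges dying cells to phagocytes, Sparc, a matrix glycoprotein, and Ndrg2, a stress-response protein of astrocytes. Aldh1l1, an astrocyte enzyme, was over the level in every cell but M5K (9.07 to 11.90) and in 0 of 23 E11 APs, with a difference of 1.21 that dropped to 0.89 without M6H. Of 28 E16 cells, 21 were over the level for Mfge8, 20 for Ndrg2 and 10 for Aldh1l1. Gfap, the filament of astrocytes, was over the level in M6H alone (10.44; 3.06 to 4.61 in the others). Gja1, connexin 43, was the glial gene that was lower: 0 of 4 cells passed the level against 17 of 23 E11 APs, a difference of -1.25.

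Matrix genes overlapped the glial list. Of 35 listed genes 30 passed the filter. Of these, 10 were higher by at least 1 (33.3% against 2.98% of all genes) and 1 was lower (3.33% against 2.95%). Between 12 and 15 of the 30 were over the level per NICD/p18 AP, against 4 to 10 per E11 AP. Mdk, the growth factor midkine and a relative of Ptn, was the lower gene, at 10.88, 11.18, 7.92 and 6.72 against 10.83 to 13.20 in E11 APs (difference -1.94), so the 2 related growth factors stood in opposite directions. Their receptor Ptprz1 measured 12.18 to 13.71, above every E11 AP (difference 2.42).

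Genes of neurons varied among the 4 cells. Of 26 listed genes 23 passed the filter and 7 were higher by at least 1 (30.4% against 2.98% of all genes), none was lower and the median difference was 0.45. M5K and M6C each had 14 of the 23 over the level, M5A 7 and M6H 2, against 2 to 9 in E11 APs. E11 cells rich in such genes had been typed as IPs or neurons and are not among the E11 APs; the 7 other E11 cells had 6 to 19 over the level. The 4 cells thus ran from the lower end of the E11 range to above its upper end.

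Map2, a microtubule protein of dendrites, and Dpysl3, a protein of growing axons, were over the level in all 4 cells, at 11.51 to 13.38 and 10.82 to 12.62, with differences of 1.90 and 1.87 and with 13 and 6 of 23 E11 APs over the level. Map2 gave -0.02 to 0 on its 3 other probe sets, and Dpysl3 0.27 and 0.87 on its 2 others. Dcx, a microtubule protein of young neurons, measured 8.97, 11.13, 12.80 and 4.51 in M5A, M5K, M6C and M6H, and no E11 AP passed the level (at most 7.17). Its difference of 1.12 dropped to 0.47 without M6C, and its second probe set was over the level in 0 of 4 cells (difference 0). Stmn2, a stathmin of growing axons, was 9.13, 10.65, 12.06 and 2.96, and the microtubule protein tau, Mapt, was 4.06, 9.93, 11.29 and 3.95, and both were over the level in 0 of 23 E11 APs. On the probe sets used, M5K and M6C passed the level for Dcx, Stmn2 and Mapt, and M5A and M6H for none of them. Neurod6, a transcription factor of excitatory neurons, was 11.55, 12.74, 12.70 and 2.46, and its relative Neurod2 was 10.36, 11.91, 13.02 and 8.13, so that M5A passed the level as well. On the probe set used Neurod2 lay above every E11 AP (at most 7.89) in all 4 cells, and its difference of 1.53 dropped to 0.94 without M6C. On its second probe set only M5K (11.16) and M6C (10.18) passed the level. M5A measured 3.61 and M6H 4.35 there, and the difference was 0.47. Tbr1, a factor of deep-layer neurons, was over the level in M6C alone (10.72). Sox11, on the list too, had a difference of 1.19 on the probe set used and 0.09 to 0.64 on its 4 other probe sets, and the first was 0.81 without M5K, 0.74 without M6C and 1.91 without M6H.

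Genes of IPs gave no difference of 1. Of 21 listed proneural and IP genes 19 passed the filter, none differed by 1 in either direction and the median difference was 0. M5A had 1 of the 19 over the level, M5K 3, M6C 4 and M6H 0, against 0 to 9 in E11 APs and 0 to 18 in the 7 other E11 cells. The proneural gene Neurog2 was over the level in 0 of 4 cells and 8 of 23 E11 APs. Insm1, a zinc-finger factor of IPs, was over the level in M5K (10.41) and M6C (10.11) and in no E11 AP, and Neurod1 in M6C alone (10.40).

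**Figure D5:**
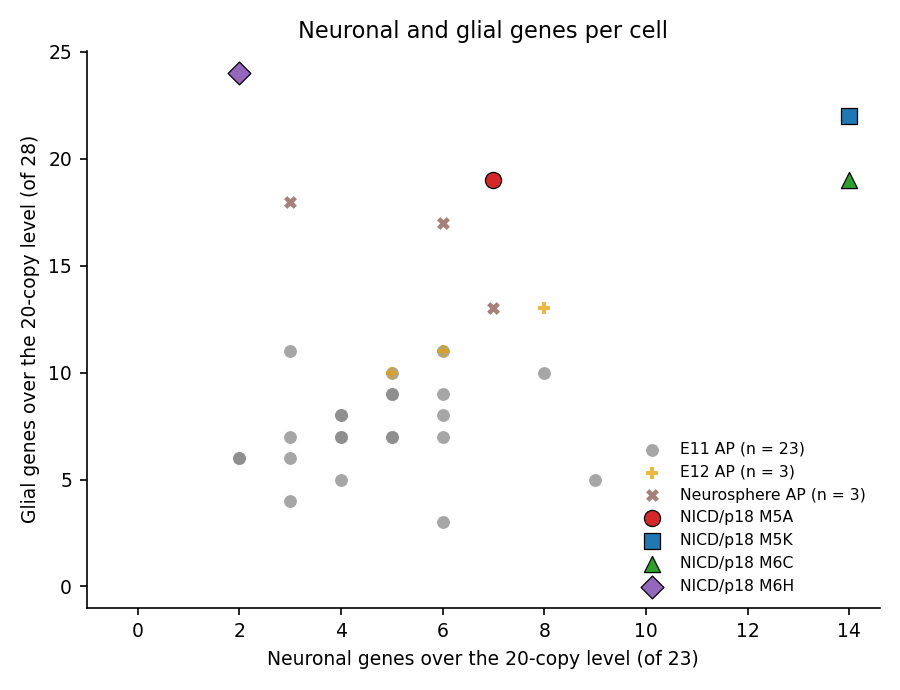
Number of glial genes (of 28, vertical axis) and of neuronal genes (of 23, horizontal axis) over the 20-copy level in each cell, for the 4 NICD/p18 APs, the 23 E11 APs, the 3 E12 APs and the 3 neurosphere APs. All 4 NICD/p18 APs have 19 to 24 glial genes, more than any other cell plotted (E16 cells, not plotted, reach 22), while their neuronal genes range from 2 in M6H to 14 in M5K and M6C.

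Markers of other cell types were nearly absent. Genes of microglia, blood, interneurons, choroid plexus and hem, Cajal-Retzius cells and the oligodendrocyte lineage were over the level in 0 of 4 NICD/p18 APs for every member that passed the filter (4, 5, 1, 2, 6 and 6 genes). Of 3 endothelial genes past the filter, Cldn5, a tight-junction protein, was over the level in M6C (11.95; 1.18 to 3.26 in the others) and Kdr and Egfl7 in none.

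Of 17 listed patterning genes 15 passed the filter, 2 were lower by at least 1 (13.3% against 2.95% of all genes) and none was higher. NICD/p18 APs had 5 or 6 of the 15 over the level, E11 APs 5 to 11 with a median of 8, and E12 APs 6 to 10. Emx2, a factor of the dorsal wall, was over the level in M6C and M6H (10.93 and 9.90) and in 21 of 23 E11 APs (difference -1.18), and Bcl11a in M5K alone (11.22) against 20 of 23 (difference -1.26). The selector Lhx2 was over the level in every cell of both groups, with a difference of -0.79.

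Genes over the level in at least 2 NICD/p18 APs and 12 E11 APs depend less on the setting of low signals. Of 1532 such genes the largest higher differences were those of Pea15a (2.98), a phosphoprotein of astrocytes, Gpm6b (2.96), a membrane proteolipid, Son (2.88), a splicing factor, Kif1b (2.53), a kinesin, and Enc1 (2.45), a neuronal actin-binding protein. Pea15a gave 3.12 on its second probe set, whereas Son gave -0.08 to 0.54 on its 5 others and 0.49 with quantile normalization over the 2 groups alone. The largest lower differences were those of Dek (-2.72), a chromatin protein, Mtm1 (-2.60), a lipid phosphatase, Rtraf (-2.33), an RNA-binding protein, Gas1 (-2.26), a membrane protein that binds Shh, and Ranbp1 (-2.20), a cofactor of nuclear transport. Rtraf gave -2.80 and -2.28 on its other probe sets, and Mtm1 0.00 and -0.23. Dek measured 9.40, -0.23, 9.95 and 9.97 and Ranbp1 10.84, 11.34, 10.61 and 10.62, all below every E11 AP.

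Probe sets of a gene did not always give like values. Of 222 named genes 118 had more than 1 probe set past the filter, and in none did they differ by 1 or more in opposite directions. On a second probe set the difference was 0.40 for Aldoc, 0.58 for Sparc, 1.91 for Bcan, 2.37 for Tnc and 1.66 for Ptn. Among the lower genes a second probe set gave 0 for Top2a, Cenpa and Mycn, whereas Hmga2 gave -2.35, Mcm7 -2.64 and Cks2 -2.87 on theirs. Gpm6b gave 0.72 and 0.80 on its others, and Gas1 -0.46.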

How the data were processed

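Each of the 68 arrays (Affymetrix, 45101 probe sets) measured cDNA amplified from 1 cell, with spike RNAs lys, dap, phe and thr added at 1000, 100, 20 and 5 copies. The deposited values are linear MAS5 intensities made by the authors, whose trimmed mean (2% off each end) was equal in 10 arrays (E12, neurosphere and NICD/p18) and 47.5 to 297.5 in the other 58. Intensities were quantile-normalized over all arrays here, set to at least the median phe signal (842) and taken as log2. Of 34958 probe sets with 1 gene symbol in the platform annotation (932 had several and 9211 were not listed), 17979 passed that level in at least 1 array. Each gene was read on the probe set whose mean over the arrays was highest, which gave 10789 genes. Probe sets whose names end in _x_at or _s_at can read related transcripts.

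Groups followed the cells' names. No test was made, since cells of 1 group cannot be assigned to embryos. No pair of the 2278 pairs of arrays held identical values. The number of arrays limits the precision. The members and gene lists were chosen with earlier results of these data known. Named genes were the Notch, cyclin, temporal-axis and heterochronic lists, up to 5 each way of the other lists or those that define a cell type, the 12 each way with the largest difference among genes whose groups did not overlap, and the 8 each way among genes over the level in both groups. Alternatives were other floors, scalings, filters, probe-set summaries and cells, and each NICD/p18 AP left out in turn. The normalization and the difference without a floor were tested on simulated data. These had less spread between cells than the arrays, so the size of floored differences was not tested. Promoter windows came from RefSeq (GRCm38.p6). Python 3.11.15, numpy 2.4.6, pandas 2.3.3, scipy 1.17.1 and matplotlib 3.10.9 were used.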

Additional observations from a re-analysis of the deposited data

Results flagged for a closer look

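For 12 of 66 values examined over the 4 NICD/p18 APs, 1 cell stood apart from the other 3: its gap to the nearest cell, divided by the range of the 4, passed Dixon's 95% limit. This screens cells and is no test of the groups. Chance passes it for about 5% of groups of 4 independent values of a normal distribution. Signals that are either high or low in a cell, and small counts, are not normal and can pass it more often. The cells and the 66 values may also not be independent. M6H stood low for Notch3 (0.923; 10.48 against 12.04 to 12.17) and for Neurod6 (0.884; 2.46 against 11.55 to 12.74). M6C stood high for Mycn (0.933; 9.07 against 1.98 to 2.46), for Hmga2 (0.898; 10.45 against 3.37 to 4.10) and for Neurod1 (0.859; 10.40 against 1.22 to 2.51), and it had 11 Notch receptor and ligand genes over the level against 5 or 6 in the other cells (0.833). M5A stood high for Mcm7 (0.993; 12.49 against 2.41 to 2.48) and for Pax6 (0.921; 12.71 against 10.63 to 10.80). M5K stood high for Crabp2 (0.855; 8.39 against 0.82 to 1.92) and low for Dek (0.945; -0.23 against 9.40 to 9.97). M5K also had 8 ribosome assembly genes over the level against 2 or 3 (0.833), and 5 late temporal-axis genes where every other cell had 6; with 3 equal counts the ratio is 1 whatever the gap, here a single gene.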

How the results depend on the processing

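Of the 9 lists whose medians are given here and the named genes, none past a difference of 1 turned to a difference of 1 in the opposite direction under any alternative run. Sizes depended on the floor set for low signals. With no floor 2954 genes were higher and 3395 lower by 1, and list medians were 1.52 for Notch targets, -6.45 for G2/M, -4.44 for DNA replication, -4.47 for early and 8.63 for late temporal-axis, -0.32 for IP, 4.25 for glial and -3.70 for ribosome biogenesis genes. With the floor at 0.25 of the 20-copy level the counts were 1118 and 1192, and the medians 0.59, -2.88, -1.96, -1.49, 2.71, -0.020, 2.75 and -1.29 in the same order, with -0.18 for Notch receptors and ligands. With the floor at 2 times that level the counts were 114 and 113, and the medians -0.68 for G2/M, -0.24 for DNA replication, -0.19 for early temporal-axis, 0.47 for glial and -0.073 for ribosome biogenesis genes.

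Arrays scaled to the lys spike gave 149 higher and 551 lower genes, and medians of 0.014 for Notch targets, -0.078 for Notch receptors and ligands, -1.49 for G2/M, -0.97 for DNA replication, -0.010 for IP and -0.42 for ribosome biogenesis genes. Hes5 (0.91), Pdgfrb (0.70) and Ednrb (0.97) then fell short of 1. Scaling to 1 trimmed mean gave -0.38 for ribosome biogenesis genes, and quantile normalization over the 2 groups alone gave -1.19 for G2/M, -0.045 for IP and -0.31 for ribosome biogenesis genes, and 1 early temporal-axis gene lower by 1 in place of 2. A filter of at least 3 cells over the level gave 0.85 for Notch targets, -0.92 for DNA replication, 2.69 for late temporal-axis, -0.15 for IP and -0.42 for ribosome biogenesis genes. Averaging probe sets gave 189 lower genes, -0.88 for G2/M and -0.55 for DNA replication. Medians over cells gave 484 lower genes, 0 for Notch targets, -1.52 for G2/M, -0.041 for early temporal-axis and -0.26 for ribosome biogenesis genes. The cause of these shifts was not tested.

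Leaving out each NICD/p18 AP in turn gave 362 to 398 higher and 338 to 390 lower genes, and medians of 0.070 to 0.27 for Notch targets, -0.028 to 0 for receptors and ligands, -1.35 to -1.27 for G2/M, -0.82 to -0.75 for DNA replication, -0.66 to -0.47 for early and 0.92 to 1.86 for late temporal-axis, 0.96 to 1.35 for glial, 0 for IP and -0.35 to -0.33 for ribosome biogenesis genes. Without the E11 AP that held red-cell transcripts, an alternative chosen after seeing the data, 318 genes were higher and 326 lower. No paired analysis was possible because the cells' names pair no cell of one group with a cell of the other. Signals near the level set by 20 spike copies limit what these arrays show of low genes.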

Other observations

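Glycolysis genes gave mostly small differences. Of 20 genes past the filter Aldoc alone was higher by 1 (5% against 2.98% of all genes). Pgk1 (-1.61), Pgam1 (-1.06) and the lactate transporter Slc16a1 (-1.02) were lower (15% against 2.95%). Pgk1 measured 10.34 in M5A and 10.44 in M6C but 12.54 in M5K and 12.80 in M6H, which lay inside the E11 range of 11.84 to 13.64. The difference of Pgam1 was -0.83 without M5A. Of 3 histone genes past the filter H2ax (-2.07) and H2az1 (-1.96), a histone variant of damaged DNA and one of active promoters, were lower. They were 66.7% of this short list, against 2.95% of all genes. H2az1 measured 6.97, 12.38, 11.96 and 12.22, all below every E11 AP (13.02 to 13.96).

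Of 10 Sox family genes past the filter Sox1, a factor of neural progenitors, and Sox11 were higher by 1 (20% against 2.98% of all genes). Sox1 measured 13.11, 11.24, 10.35 and 11.46 against 9 of 23 E11 APs over the level, and its difference of 1.34 was 0.82 without M5A. Cdh2, the N-cadherin of the AP junctions, measured 12.96, 11.16, 13.06 and 13.36, with 22 of 23 E11 APs over the level and a maximum of 12.49. Of 30 genes of the TGF-beta, BMP, Wnt and Shh pathways 1 was higher by 1, the Wnt receptor Fzd8 (10.47 to 12.18; difference 1.03, or 0.87 without M5A and 0.80 without M6H), and 1 was lower, Gas1. Each was 3.33% of the list, close to the 2.98% and 2.95% of all genes.

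Across the probe sets past the filter, floored as above, the correlation between a pair of NICD/p18 APs ran from 0.499 to 0.616 over 6 pairs, the highest being M5K with M6C. Between E11 APs it ran from 0.536 to 0.787 over 253 pairs, and between the groups the median was 0.485. These values are across probe sets, which are not independent.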
